A study of Mus musculus with 18 samples.

Results

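The steroid dehydrogenases and reductases described here are 9 mouse liver genes chosen by name: Hsd3b2, Hsd3b3, Hsd3b5, Hsd11b1, Hsd17b2, Hsd17b6, Srd5a1, Akr1d1 and Akr1c6. They were chosen with earlier results of these data known. The shares of all genes set beside their counts, here and below, are therefore a scale and not a test. All 9 symbols matched 1 Ensembl identifier each among the 37620 genes of the deposited count table, and all 9 passed the filter on low counts. Old livers given vehicle held less RNA of 7 of the 9 genes than young livers, where 8.32% of the 14226 genes tested were called lower. Old livers given ouabain held more RNA of 3 of them, Hsd3b2, Hsd3b3 and Hsd3b5, than old livers given vehicle, where 0.991% of all genes tested were called higher. Hsd3b5 passed the filter only through its young and ouabain libraries, and without it the counts are 6 of 8 and 2 of 8.

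Steroid dehydrogenases move hydrogen on or off the oxygen groups of the steroid skeleton, and so switch a hormone between a form that binds its receptor strongly and one that does not. The 3β-, 11β- and 17β-hydroxysteroid dehydrogenases are named after the carbon they act on, while 5α- and 5β-reductases saturate the first ring of hormones such as testosterone, progesterone and corticosterone. The liver makes little steroid hormone from cholesterol, but it is a main site where circulating hormones are reactivated, inactivated and prepared for excretion, and 5β-reduction is also a step of bile acid synthesis. Several of these genes are expressed at different levels in male and female mouse liver, under the control of pituitary growth hormone. Ouabain is a cardiac glycoside that inhibits the sodium-potassium ATPase and kills senescent cells in culture.

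RNA was sequenced from whole livers of 18 female mice, 6 in each of 3 groups. The young mice were 7 weeks old and are labelled as untreated. Both old groups were 24 months old and came from a cohort of 16 mice that was 21 to 22 months old at the start. The old mice were given either ouabain at 1 mg/kg or vehicle, labelled as saline, over 12 weeks, with treatment on 4 occasions in each dosing week and pauses of 2 weeks between. They were killed 3 days after the last round. The young group had no vehicle treatment, so age and handling cannot be told apart in any comparison with it. The sources used here give neither the strain nor the way in which 12 old mice were drawn from the 16. The 3 comparisons share their groups, so that each set of 6 libraries enters a pair of them.

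The deposited values are raw read counts per gene, 4201251 to 11113307 in a library. The shallowest library was ouabain replicate 5, and the second lowest total was 7527846. A count of 0 allows up to 3 counts, and such limits cover counting error only. Levels are given as CPM, a library's counts rescaled to a common total with TMM factors. Xist, which is expressed from the inactive X chromosome, lay between 378.6 and 584 CPM in every library, as the female label requires. Albumin and 8 other hepatocyte genes summed to 104161 to 154182 CPM in young, 92811 to 141347 in vehicle and 104470 to 130242 in ouabain livers, most of it albumin. These ranges overlapped, but 4 of the 9 were called lower and 1 higher in vehicle than in young livers (median log2 fold change -0.23). Of 10 periportal hepatocyte markers 2 were lower and 1 higher in vehicle than in young livers, and 1 was higher in ouabain than in vehicle livers. Of 9 pericentral markers 1 was lower in vehicle than in young livers. Of the 10 markers of steroid-making adrenal and gonad cells, Cyp19a1, Cyp11b1, Nr5a1, Mc2r and Lhcgr were at 0 counts in all 18 libraries, and Cyp11b2 had 1 count in all. Star, Cyp11a1 and Cyp21a1 were at means of 0.0152 to 1.95 CPM in the groups. Cyp17a1, which encodes a steroid 17α-hydroxylase, was at 73.0 to 192 CPM in young, 99.5 to 413 in vehicle and 172 to 314 in ouabain livers. Markers of leukocytes summed to 117 to 154 CPM in young, 174 to 784 in vehicle and 157 to 377 in ouabain livers, and 8 of 9 tested were higher in vehicle than in young livers. In ouabain livers 2 of these 9 were lower than in vehicle livers. The part of these marker genes in the results was not tested, and in whole liver fewer cells of a type and less RNA per cell cannot be told apart.

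The 3 genes called higher in ouabain than in vehicle livers are 3β-hydroxysteroid dehydrogenases. Genes of this family lie side by side on mouse chromosome 3, all on the minus strand, in the order Hsd3b4, Hsd3b5, Hsd3b2, Hsd3b3, Hsd3b6 and Hsd3b1. Hsd3b2 and Hsd3b3 encode 3β-hydroxysteroid dehydrogenase/isomerases, which turn pregnenolone-type steroids into progesterone-type ones. In the mouse the product of Hsd3b5 works instead as a 3-ketosteroid reductase, which inactivates androgens such as dihydrotestosterone, and its expression in liver is known to be far higher in males than in females. The stretches before the start sites of Hsd3b3 and Hsd3b5 are shown because both genes changed in both comparisons that involve vehicle and because these sequences resemble each other. Each is the 250 bases upstream of a RefSeq start site, read 5′ to 3′ on the minus strand of GRCm38.p6, while the counts were made on the older build mm9. Capitals mark the run of 24 bases that is identical in both. Hsd3b3 covers chr3:98763129-98763378 and Hsd3b5 covers chr3:98645535-98645784.
Hsd3b3: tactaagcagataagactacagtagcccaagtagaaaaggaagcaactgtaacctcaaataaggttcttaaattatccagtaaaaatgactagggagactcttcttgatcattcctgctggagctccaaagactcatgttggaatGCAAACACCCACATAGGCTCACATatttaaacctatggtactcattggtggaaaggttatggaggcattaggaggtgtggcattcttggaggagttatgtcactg
Hsd3b5: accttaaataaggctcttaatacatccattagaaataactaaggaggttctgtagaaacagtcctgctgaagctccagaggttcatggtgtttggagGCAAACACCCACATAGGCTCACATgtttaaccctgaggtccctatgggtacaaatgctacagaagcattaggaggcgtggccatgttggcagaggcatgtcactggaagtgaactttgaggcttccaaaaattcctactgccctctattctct

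In a global alignment of these stretches, with no penalty for gaps at the ends, 151 of 199 aligned bases were identical, or 75.9%. The shared run of 24 bases begins 105 bases before the start of Hsd3b3 and 153 bases before that of Hsd3b5. Among 32851 RefSeq promoters it was found in 3, which belong to only these 2 genes, since Hsd3b3 has 2 listed starts. The windows of Hsd3b2 and Hsd3b6 shared no run of 12 or more bases with them. The run opens with GCAAACA, the reverse complement of TGTTTGC, a core motif of forkhead factors. That motif was searched on both strands after the run had been seen. It was found in 4.30% of all 250-base promoter windows, and among the 8 genes with a promoter entry it was in those of Hsd3b3 and Hsd3b5. In both it lies in the shared run that prompted the search, so the matches are not independent and the share is no test. Hsd17b2 had no entry. The letters TTCNNNGAA, a palindrome bound by STAT5 factors, were in 7.02% of all windows, and ACANNNTGT, a core motif of steroid receptors, was in 5.84%. None of the 8 genes had either in its window. TATAAA was in 12.4% of all windows and in that of Akr1c6. A match is a description of these letters and not a binding site.

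**Figure D1:**
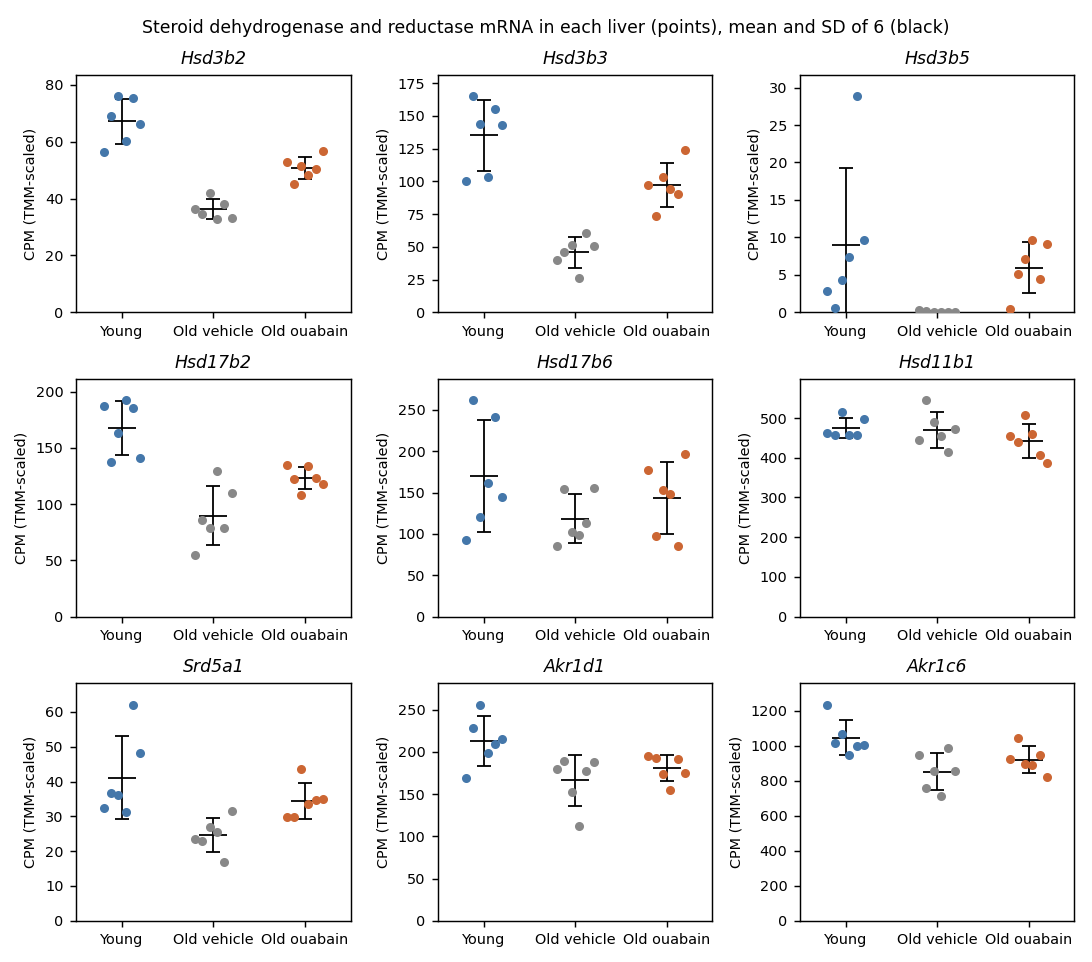
CPM (TMM-scaled) of each of the 9 genes in every library, with 1 panel a gene, 1 point a library, and the mean ± SD of the 6 libraries of each group. For Hsd3b2 and Hsd3b3 the 6 vehicle livers sit below all young and all ouabain livers, while for Hsd11b1 the 3 groups overlap.

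Hsd3b2 was at 56.5, 67.7 and 76.0 CPM as the lowest, median and highest young liver, at 32.8, 35.6 and 42.1 CPM in vehicle livers and at 45.2, 50.9 and 56.9 CPM in ouabain livers. Every ouabain liver lay above every vehicle liver, and all but 1 of the ouabain livers lay below every young liver. The ouabain level was 1.40-fold the vehicle level, a log2 fold change of 0.49 (SE 0.09, adjusted p = 0.00738). Vehicle livers were lower than young ones (log2 fold change -0.89, SE 0.09, adjusted p = 1.25e-06), and ouabain livers were also lower than young ones (log2 fold change -0.41, SE 0.09, adjusted p = 0.0214). This was the one gene of the 9 that differed between ouabain and young livers. That last difference no longer passed without ouabain replicate 2 (adjusted p = 0.0710), ouabain replicate 5 (0.0515), young replicate 3 (0.0548) or young replicate 5 (0.0610).

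Hsd3b3 changed more than its neighbour. Its lowest, median and highest levels were 100.6, 143 and 165 CPM in young, 26.4, 48.2 and 60.5 CPM in vehicle and 73.8, 95.6 and 124 CPM in ouabain livers. The vehicle livers lay below all 12 others. Ouabain livers held 2.12-fold the vehicle level (log2 fold change 1.09, SE 0.17, adjusted p = 0.00409), and vehicle livers were lower than young ones by a log2 fold change of -1.56 (SE 0.17, adjusted p = 1.07e-05). Between ouabain and young livers the log2 fold change was -0.48 (SE 0.17, adjusted p = 0.172), with an approximate unadjusted 95% interval of -0.80 to -0.15. All 6 ouabain livers were below the young median.

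Hsd3b5 was nearly at 0 in vehicle livers. The 6 vehicle libraries held 0, 0, 0, 1, 2 and 3 counts, or 6 in all. The ouabain libraries held 5, 19, 55, 66, 70 and 89 counts, from 0.458 to 9.69 CPM with a median of 6.13, and the young ones held 7, 29, 43, 65, 77 and 267 counts, from 0.639 to 28.9 CPM with a median of 5.86. Every ouabain and every young library was above every vehicle library, and the ouabain and young ranges overlapped. The gene passed the filter on low counts only through its young and ouabain libraries, so it had to differ from vehicle in some measure. The summed counts, scaled for depth, were 59.6 times as high in ouabain as in vehicle livers, with an exact 95% interval of 27.1 to 164 that covers counting error only. In the fit the log2 fold change was 5.75 (SE 1.19, adjusted p = 0.0245). Against young livers the vehicle level was lower by a log2 fold change of -6.32 (SE 1.14, adjusted p = 0.00122). Between ouabain and young livers it was -0.57 (SE 0.66, adjusted p = 0.718), and this estimate became 0.29 without young replicate 5, the library at 28.9 CPM.

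The ouabain call on Hsd3b5 was the least secure of the 3. It was lost without ouabain replicate 3 (adjusted p = 0.0586), ouabain replicate 4 (0.0602), ouabain replicate 6 (0.0572), vehicle replicate 3 (0.0576) or vehicle replicate 4 (0.0569), and kept in the other 13 of 18 such fits. The log2 fold change stayed between 5.50 and 6.38 in all 18. The calls on Hsd3b2 and Hsd3b3 were kept in 18 of 18.

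Genes of this cluster are alike in sequence, and the sources used here do not say how reads that match several genes were counted. Of all 50-base windows along the GENCODE M21 protein-coding transcripts, 25.1% of those of Hsd3b2, 25.0% of those of Hsd3b3 and 21.2% of those of Hsd3b5 also occur in another gene. For Hsd3b3 the shared windows were mostly with Hsd3b2 (23.7%) and also with Hsd3b6 (12.9%), while 18.2% of those of Hsd3b5 were shared with Hsd3b4 and with the gene model Gm10681, and 13.7% with Gm4450. The exons of Hsd3b2 and Hsd3b3 also overlap those of Zfp697 on the opposite strand, and no strand setting is given. The split of counts among these genes is therefore uncertain. When the counts of Hsd3b1, Hsd3b2, Hsd3b3, Hsd3b5 and Hsd3b6 were summed as 1 gene, which removes the split among these 5 but not sharing with genes outside the sum, ouabain livers were above vehicle livers by a log2 fold change of 0.91 (SE 0.13, adjusted p = 0.00204). The sum was lower in vehicle than in young livers (log2 fold change -1.37, SE 0.13, adjusted p = 1.19e-06) and stood at -0.46 (SE 0.13, adjusted p = 0.0897) in ouabain against young livers.

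Of the other 3β-hydroxysteroid dehydrogenase genes, 2 passed the filter. Hsd3b6, the neighbour of Hsd3b3, was at 11.2 ± 2.20 CPM (SD, n = 6) in young, 3.71 ± 1.28 in vehicle and 8.27 ± 1.55 in ouabain livers. It rose with ouabain (log2 fold change 1.14, SE 0.21, adjusted p = 0.00963), and it was lower in vehicle than in young livers (log2 fold change -1.59, SE 0.21, adjusted p = 3.36e-05). Of the 50-base windows of Hsd3b6, 16.0% also occur in other genes, and 12.5% occur in Hsd3b3. Over the vehicle libraries it held 227 counts, where Hsd3b3 held 2798. How far its values come from reads of Hsd3b3 or Hsd3b2 was not tested, so it is not a separate line of evidence. Hsd3b7 lies outside the cluster and encodes the 3β-dehydrogenase of bile acid synthesis. It was at 427 ± 57.1, 441 ± 67.7 and 419 ± 42.5 CPM in young, vehicle and ouabain livers, and none of its 3 comparisons passed the test, with adjusted p from 0.751 to 0.935. Hsd3b1 had 27 to 48 counts in a group and did not pass the filter.

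Hsd3b2 and Hsd3b3 did not move in the same proportion. For each library the ratio of Hsd3b3 counts to Hsd3b2 counts was 1.71 to 2.38 in young, 0.804 to 1.59 in vehicle and 1.63 to 2.18 in ouabain livers. All vehicle livers were below all others, and a two-sided exact permutation test gave p = 0.00216 for vehicle against each of the others, the smallest value that 6 against 6 libraries can give. Ouabain and young livers overlapped (exact permutation p = 0.491). The ratio of Hsd3b6 to Hsd3b2 was 0.137 to 0.199 in young, 0.0468 to 0.142 in vehicle and 0.123 to 0.198 in ouabain livers, with exact permutation p = 0.00866 for ouabain against vehicle. The ratio of Hsd3b3 to Hsd3b6 did not separate the groups, with means of 12.2 ± 1.87, 12.9 ± 2.34 and 11.9 ± 1.90 (SD, n = 6) in young, vehicle and ouabain livers and exact permutation p between 0.439 and 0.814. These ratios were chosen after the values were seen. With another ratio that is not given, Hsd17b2 to Hsd11b1, the family holds 12 tests, and after adjustment over them the p-values were 0.0130, 0.0130 and 0.631 for Hsd3b3 to Hsd3b2, in the order given, and 0.0208 for Hsd3b6 to Hsd3b2.

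**Figure D2:**
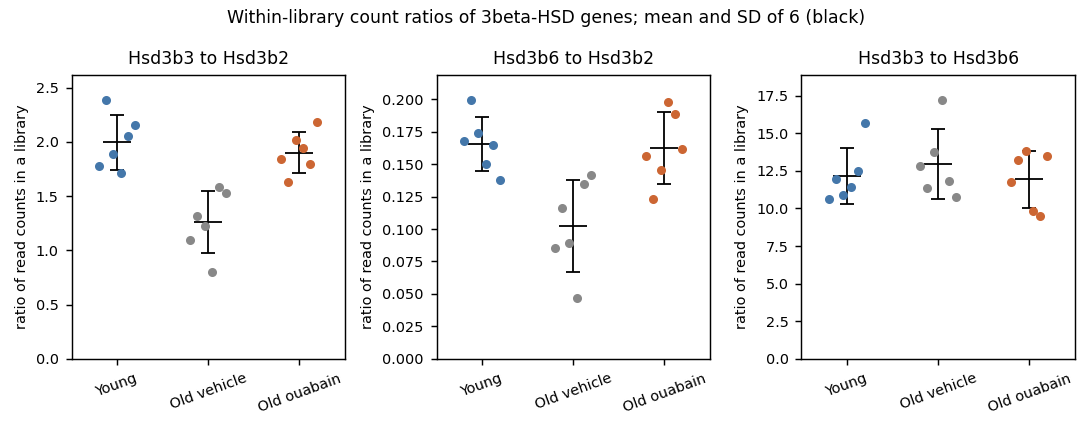
Ratios of counts of gene pairs in each library, by group, with 1 point a library and the mean ± SD of 6. The ratio of Hsd3b3 to Hsd3b2 is 0.804 to 1.59 in vehicle livers, under every young and every ouabain liver, while that of Hsd3b3 to Hsd3b6 overlaps in all 3 groups.

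The 17β-hydroxysteroid dehydrogenases act at the carbon that separates estradiol from estrone and testosterone from androstenedione. Hsd17b2 encodes an enzyme that oxidises estradiol and testosterone to their weaker forms. Its lowest, median and highest levels were 138, 174 and 192 CPM in young, 55.1, 82.3 and 129 CPM in vehicle and 108, 123 and 135 CPM in ouabain livers. All young livers lay above all old ones, treated or not, while the ouabain range overlapped the upper part of the vehicle range. Vehicle livers were lower than young ones (log2 fold change -0.90, SE 0.15, adjusted p = 0.00035). Ouabain livers were at a log2 fold change of 0.46 (SE 0.15, adjusted p = 0.102) from vehicle livers, which did not pass the test, although all 6 lay above the vehicle median. The vehicle library with the highest Hsd17b2 level was replicate 4, and without it the same difference was 0.59 with adjusted p = 0.0303. Of the 18 fits with 1 library left out, only this 1 passed. Over the 18 the log2 fold change ranged from 0.35 to 0.59, with adjusted p up to 0.207. Against young livers the ouabain group was at -0.45 (SE 0.15, adjusted p = 0.143), though its 6 livers were all below the 6 young ones.

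Hsd17b6 encodes an enzyme that in rodents oxidises androstanediol and other 3α-hydroxysteroids. Its levels spread widely within each group, with lowest, median and highest values of 92.1, 153 and 262 CPM in young, 86.0, 108 and 156 CPM in vehicle and 85.2, 151 and 196 CPM in ouabain livers. The 3 ranges overlapped. No comparison passed the test: the log2 fold change was 0.27 (SE 0.26, adjusted p = 0.590) for ouabain against vehicle, -0.52 (SE 0.26, adjusted p = 0.178) for vehicle against young and -0.25 (SE 0.26, adjusted p = 0.678) for ouabain against young. Of its 50-base windows 12.1% also occur in other genes, among them Rdh1.

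Hsd11b1 encodes 11β-hydroxysteroid dehydrogenase type 1, which in liver regenerates active corticosterone from its inert 11-keto form. It had the smallest differences between groups of the 9 genes, at 457, 460 and 516 CPM as the lowest, median and highest young liver, 415, 463 and 544 CPM in vehicle and 387, 447 and 507 CPM in ouabain livers. The groups overlapped throughout. The log2 fold change was -0.09 (approximate 95% interval -0.25 to 0.07, adjusted p = 0.586) for ouabain against vehicle, -0.01 (-0.17 to 0.15, adjusted p = 0.936) for vehicle against young and -0.10 (-0.26 to 0.06, adjusted p = 0.574) for ouabain against young.

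The reductases were lower in vehicle than in young livers, and none of them passed the test between ouabain and vehicle livers. Srd5a1 encodes steroid 5α-reductase 1, which turns testosterone into dihydrotestosterone and also acts on progesterone and corticosterone. Its lowest, median and highest levels were 31.2, 36.4 and 62.1 CPM in young, 16.9, 24.5 and 31.6 CPM in vehicle and 29.7, 34.1 and 43.6 CPM in ouabain livers. All but 1 of the vehicle livers were below every young liver, and 4 of 6 ouabain livers were above every vehicle liver. Vehicle livers were lower than young ones (log2 fold change -0.74, SE 0.16, adjusted p = 0.00353). For ouabain against vehicle the log2 fold change was 0.48 (SE 0.16, adjusted p = 0.115), close to that of Hsd3b2 but with a larger SE, and all 6 ouabain livers were above the vehicle median. Against young livers the ouabain group was at -0.26 (SE 0.16, adjusted p = 0.446). Of the 50-base windows of Srd5a1, 16.5% are shared with the overlapping model Gm17108, which held 11, 8 and 1 counts in the young, vehicle and ouabain groups.

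Akr1d1 encodes the 5β-reductase that inactivates 4-ene hormones and takes part in bile acid synthesis. Its lowest, median and highest levels were 169, 212 and 256 CPM in young, 112, 178 and 189 CPM in vehicle and 155, 183 and 195 CPM in ouabain livers, and all 3 ranges overlapped. Vehicle livers were lower than young ones by a log2 fold change of -0.36 (SE 0.12, adjusted p = 0.0355). Akr1c6 encodes the mouse type 5 17β-hydroxysteroid dehydrogenase, an aldo-keto reductase that turns androstenedione into testosterone. It lay at 949, 1011 and 1235 CPM in young, 710.3, 854 and 985 CPM in vehicle and 820, 911 and 1046 CPM in ouabain livers, with all but 1 of the vehicle livers below every young one. Vehicle livers were lower by a log2 fold change of -0.30 (SE 0.09, adjusted p = 0.0291).

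With 1 library left out, these log2 fold changes stayed between -0.41 and -0.26 for Akr1d1 and between -0.34 and -0.24 for Akr1c6, and the calls were kept in 12 and 14 of 18 fits. The difference of Akr1d1 did not pass without vehicle replicate 3 (adjusted p = 0.0747) or 4 (0.0628), or without young replicate 2 (0.0577), 3 (0.0921), 5 (0.0523) or 6 (0.0588). That of Akr1c6 did not pass without vehicle replicate 2 (0.0724) or 4 (0.0630), or without young replicate 1 (0.0649) or 3 (0.0535). For ouabain against vehicle the log2 fold changes of Akr1d1 and Akr1c6 were 0.12 (adjusted p = 0.600) and 0.11 (adjusted p = 0.520), with approximate unadjusted 95% intervals of -0.11 to 0.35 and -0.07 to 0.30. For ouabain against young they were -0.24 (SE 0.12, adjusted p = 0.309) and -0.18 (SE 0.09, adjusted p = 0.330). All 6 ouabain livers were below the young median for Akr1d1, and 5 were below every young liver for Akr1c6.

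Counted together, 3 of the 9 genes were higher in ouabain than in vehicle livers, beside 0.991% of the 14226 genes tested. None was called lower by edgeR (0.851% of all genes were), DESeq2 or limma voom, and none had an unadjusted p under 0.05 in that direction. The 3 called genes were also those in which every ouabain liver lay above every vehicle liver, which held for 1.12% of all genes. The 3 share sequence and position, so they are not independent of one another, and without Hsd3b5 the count is 2 of 8. The median log2 fold change of the 9 was 0.46, beside -0.01 over all genes tested.

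In vehicle against young livers 7 of the 9 were lower, beside 8.32% of all genes, and without Hsd3b5 the count is 6 of 8. None was called higher by edgeR (10.9% of all genes were), DESeq2 or limma voom, or had an unadjusted p under 0.05 in that direction. In 4 of the 9, Hsd3b2, Hsd3b3, Hsd3b5 and Hsd17b2, the groups did not overlap, which held in this direction for 2.6% of all genes. These 4 include Hsd3b5, which had to differ from vehicle in some measure to pass the filter. The median of the 9 was -0.74, beside -0.01 over all genes.

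In ouabain against young livers 1 of the 9 was lower, where 0.387% of all genes were called lower, and 1 other, Hsd17b2, had groups that did not overlap (0.717% of all genes). None was called higher by edgeR (0.738% of all genes were), DESeq2 or limma voom, 3 had an unadjusted p under 0.05, all on the lower side, and the median was -0.26. Without the shallowest library, ouabain replicate 5, and vehicle replicate 4, the old library farthest from the young ones on the first principal component, the counts were 2 higher with ouabain, 5 lower in vehicle and 1 lower in ouabain against young. That pair was chosen after the data were seen. The group means fell in the order young, ouabain, vehicle in 8 of the 9 genes, all but Hsd11b1, and in 24.2% of all genes tested. This order requires vehicle to be below young, and all 9 estimates for that comparison were below 0. It is therefore partly set by that result. The share among only the genes lower in vehicle was not computed and would be higher than 24.2%.

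**Figure D3:**
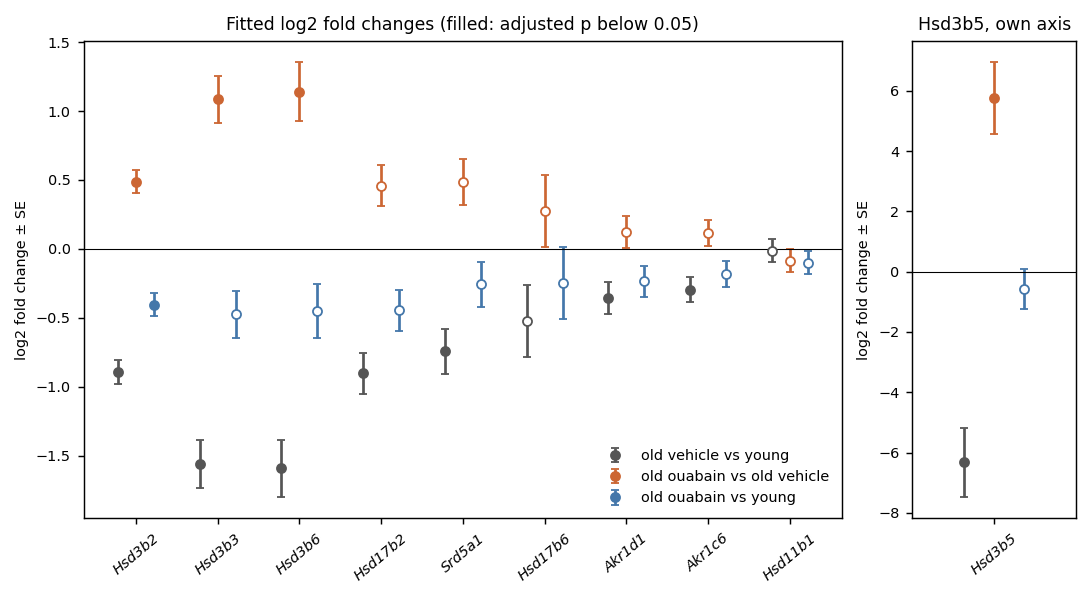
Log2 fold changes of the 9 genes and Hsd3b6 for the 3 comparisons, with approximate standard errors as bars, filled points for adjusted p under 0.05 and Hsd3b5 on an axis of its own. Ouabain against vehicle is above 0 for every gene drawn but Hsd11b1, at -0.09, and vehicle against young is at or below 0 for all 9 genes, from -0.01 for Hsd11b1 to -6.32 for Hsd3b5.

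Per kilobase of exon, a scale on which different genes can be compared, the highest level in young livers was that of Akr1c6 at 514 ± 49.4 CPM per kb (SD, n = 6). Hsd11b1 (112 ± 6.01) and Hsd17b6 (108 ± 42.9) followed and did not differ beyond their spread, as did Hsd17b2 (87.3 ± 12.5) and Akr1d1 (73.5 ± 10.1). Hsd3b2 (18.2 ± 2.14) and Srd5a1 (14.1 ± 4.10) were lower and overlapped, and Hsd3b5 was lowest at 5.77 ± 6.63. The place of Hsd3b3 depends on the length used. Over the union of all its GENCODE M21 exons, 6396 bases, it was at 21.1 ± 4.22 CPM per kb, and over the 1710 distinct 50-base windows of its protein-coding transcripts it was at 79.0 ± 15.8. By that second length, chosen after the data were seen, Hsd11b1 was at 215 ± 11.5, Hsd17b2 at 132 ± 19.0 and Hsd17b6 at 103 ± 41.0. On it Hsd11b1 and Hsd17b6 did differ beyond their spread, so their order also depends on the length used. Both lengths come from another build than the one used for counting.

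Genes whose log2 CPM followed each gene over the 18 libraries were named by the highest Pearson correlation. These are descriptions, since all the points share the 3 groups, and Hsd3b2, Hsd3b3 and Hsd3b6 also share sequence. Hsd3b2 was followed by Hsd3b3 (r = 0.946), Mug1 (0.911) and Mlxipl (0.906), and Hsd3b3 by Hsd3b6 (0.967), Mug1 (0.956) and Cyp2c54 (0.951). Hsd3b5 was followed by Klhdc10 (0.927), Cyp2d9 (0.925) and Atp13a1 (0.923), of which Cyp2d9 encodes a male-biased steroid 16α-hydroxylase. Hsd17b2 went with Cyp4f14 (0.908), Ces3a (0.908) and Sel1l3 (0.898), and Hsd17b6 with Nbr1 (0.875), Col18a1 (0.858) and Tnpo3 (0.847). Srd5a1 went with Cdc42bpb (0.893), Atrn (0.893) and Abcb4 (0.890). Akr1d1 was closest to another member of the aldo-keto reductases, Akr1c14 (0.907), then Car8 (0.898) and Fbxo3 (0.880), and Akr1c6 to Nr2f2 (0.837), Fdx1 (0.828) and Ndufaf2 (0.820). Hsd11b1 had no close follower, with Pigh the nearest at 0.599.

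**Figure D4:**
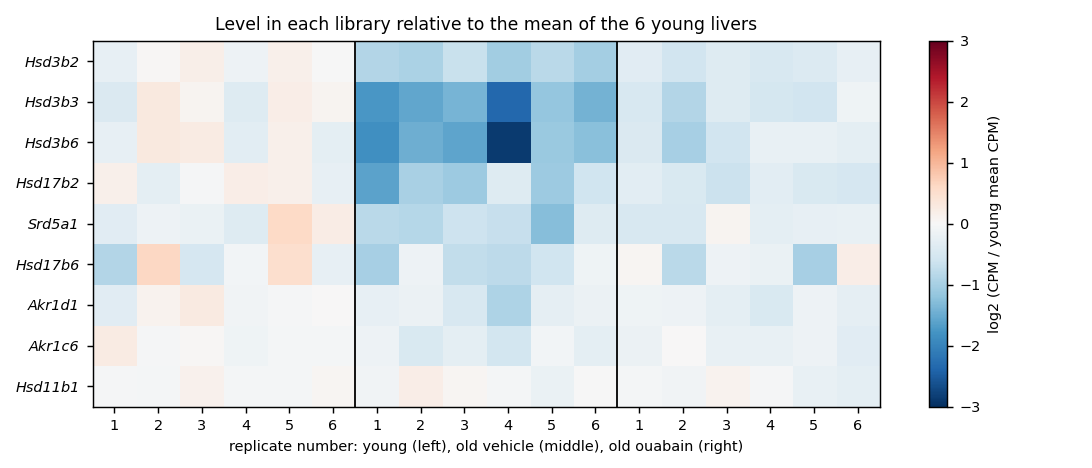
Log2 ratio of the CPM in each of the 18 libraries to the mean CPM of the 6 young livers, for each of the 9 genes but Hsd3b5 and for Hsd3b6, with columns ordered young, vehicle, ouabain. The 3β-hydroxysteroid dehydrogenase genes are low in the 6 vehicle livers and higher in young and ouabain livers, and Hsd11b1 varies little.

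The related genes outside the 9 moved less uniformly. Of 6 other 17β-hydroxysteroid dehydrogenase family genes tested, none was called by edgeR in ouabain against vehicle livers (2 higher at an unadjusted p under 0.05, median log2 fold change 0.11), and 2 were lower in vehicle than in young livers. These were Hsd17b11 (log2 fold change -0.49, SE 0.12, adjusted p = 0.00660), which encodes a lipid droplet dehydrogenase, and Hsd17b12 (-0.35, SE 0.09, adjusted p = 0.00728), which acts in fatty acid elongation. Of 7 other reductases and AKR1C genes, none was called by edgeR with ouabain (1 higher at an unadjusted p under 0.05, median -0.03). Between vehicle and young livers, Akr1c20 was higher in the vehicle group (0.22, SE 0.07, adjusted p = 0.0411) and Akr1c19 was lower (-0.45, SE 0.14, adjusted p = 0.0273), and the median of the 7 was 0.01.

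Among the sex steroid receptors and other nuclear receptors tested, Hnf4a (log2 fold change -0.38, SE 0.11, adjusted p = 0.0157) and Rxra (-0.36, SE 0.11, adjusted p = 0.0205), nuclear receptors of hepatocytes, were lower in vehicle than in young livers. Esr1, Nr1i2, Nr1i3 and Nr1h4 were not called by edgeR in that comparison (adjusted p from 0.0688 to 0.133).

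Steroid hydroxylases and conjugating enzymes, which act after or beside the dehydrogenases, went both ways. Of 18 tested, 2 rose with ouabain: Cyp2d9 (log2 fold change 1.37, SE 0.22, adjusted p = 0.00462) and Ugt2b1 (0.53, SE 0.13, adjusted p = 0.0414), a glucuronosyltransferase. In vehicle against young livers 6 were higher and 5 lower, with a median of 0.00. The highest rises were of Sult1e1, the estrogen sulfotransferase (7.60, SE 1.39, adjusted p = 0.00150), Sult2a1, a hydroxysteroid sulfotransferase (2.39, SE 0.28, adjusted p = 2.98e-05), and Cyp3a41a, a female-biased cytochrome (2.14, SE 0.27, adjusted p = 5.94e-05). Sult1e1 ranged from 9.02 to 308.5 CPM among vehicle livers, so that 1 library carried most of its mean. In ouabain against young livers 4 were higher, led by Sult2a1 (1.77, SE 0.27, adjusted p = 0.00635), Cyp3a41a (1.42, SE 0.27, adjusted p = 0.0152) and Cyp2a4 (1.20, SE 0.19, adjusted p = 0.00608).

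Of 14 glucocorticoid handling and response genes, none was called by edgeR in ouabain against vehicle livers (3 lower at an unadjusted p under 0.05, median log2 fold change -0.46). In vehicle against young livers 2 were higher and 2 lower. Serpina6, the corticosteroid-binding globulin, rose (1.57, SE 0.44, adjusted p = 0.0192), as did Tat, tyrosine aminotransferase (0.54, SE 0.19, adjusted p = 0.0490), while Nr3c2, the mineralocorticoid receptor, was lower (-0.47, SE 0.15, adjusted p = 0.0370). Of 14 bile acid synthesis genes none was called by edgeR with ouabain (3 higher and 1 lower at an unadjusted p under 0.05, median 0.02). In vehicle against young livers Cyp7b1, an oxysterol hydroxylase, was higher (0.58, SE 0.19, adjusted p = 0.0418), and Slc27a5 (-0.32, SE 0.09, adjusted p = 0.0205) and Amacr (-0.24, SE 0.07, adjusted p = 0.0214), a ligase and a racemase of the pathway, were lower.

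Of 15 growth hormone and sex-biased liver regulators, 1 rose with ouabain: Foxa1, a forkhead factor (log2 fold change 0.79, SE 0.17, adjusted p = 0.0225), with a median of 0.07 over the 15. In vehicle against young livers 3 were higher and 3 lower, among them Cux2, a female-biased repressor (1.84, SE 0.33, adjusted p = 0.00101), Bcl6, a male-biased repressor (-1.73, SE 0.44, adjusted p = 0.0111), and Foxa1 (-0.96, SE 0.17, adjusted p = 0.000521). Cux2 was also higher in ouabain than in young livers (1.53, SE 0.33, adjusted p = 0.0325). Bcl6 stood at 27.5 ± 16.7 CPM (SD, n = 6) in young, 8.22 ± 1.72 in vehicle and 14.6 ± 8.62 in ouabain livers.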

How the data were processed

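RNA of 18 mouse livers was measured by RNA-seq. The authors deposited raw read counts per Ensembl gene, not normalized. Per the submitters' processing notes, TopHat2 2.0.11, featureCounts and the build mm9 were used; the sources used here do not give the read length, annotation release, strand setting or treatment of shared reads. Symbols matched 32897 identifiers, and the other 4723 hold 1.46% of the counts. Groups come from the sample labels. Where nothing says that libraries of a group came from separate extractions, p-values measure the spread between these libraries. No pair of libraries agreed within sampling noise (chi-square per gene 5.31 to 58.1 within groups).

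Counts were analysed with edgeR 4.0.16 in R 4.3.3 (minimum count 10, 14226 genes, TMM, robust quasi-likelihood F-test, two-sided, all 18 libraries in 1 fit, Benjamini-Hochberg adjusted p under 0.05 over all genes). Genes varied between libraries of a group with a biological coefficient of variation of 0.183. Errors of fold changes are the log2 fold change over the square root of F. Ratios were tested with exact permutation tests (scipy 1.17.1). The fit was also run on counts simulated from its own estimates, with changes set only in the ouabain group. That run is not used as support for any result here. Alternatives were other size factors, other filters, DESeq2 1.42.0, limma 3.58.1 voom with and without quality weights, only 12 libraries, a replicate block, thinning to the shallowest library and leaving out each library. Named genes were the 9 members, up to 3 called genes per list and comparison with the largest changes, and up to 3 genes most correlated with each member. A few further genes of the lists are named beside them. One gene of the receptor list is not reported here. The members and lists were chosen with earlier results of these data known. Promoter sequences are RefSeq's (GRCm38.p6), aligned with biopython 1.88.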

Additional observations from a re-analysis of the deposited data

Results flagged for a closer look

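Of 27 groups of 6 libraries, 3 for each of the 9 genes, 1 held a library far from the others. Ouabain replicate 1 had 0.458 CPM of Hsd3b5, or 5 counts, and its gap to the nearest ouabain liver was 0.717 of the group's range on the log2 CPM scale, above Dixon's 95% critical value for 6 samples. Chance flags about 1 in 20 groups.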

How the results depend on the processing

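With 1 library left out at a time (18 fits), 2 to 3 of the 9 genes were higher in ouabain than in vehicle livers, 5 to 7 were lower in vehicle than in young livers, and 0 to 1 were lower in ouabain than in young livers. None of the 9 was called the other way in any of these fits or in the 10 other settings, which gave 2 to 4 higher with ouabain. Genes lower in vehicle than in young livers numbered 4 with only the 12 libraries compared, where Hsd3b5 failed the filter and Akr1d1 and Akr1c6 lost their calls, and 5 to 7 in the others. In ouabain against young livers 2 were lower with quality weights and with only the 12 libraries (Hsd17b2 was added in both), and 0 after thinning to the shallowest library. In ouabain against vehicle livers Hsd3b5 lost its call with voom (adjusted p = 0.122), with quality weights (0.0747) and without ouabain replicate 5 and vehicle replicate 4 (0.0823). With only the 12 ouabain and vehicle libraries, Hsd3b5 failed the filter and was not tested in this comparison either. Hsd17b2 and Srd5a1 gained a call in it with quality weights (0.0177 and 0.0387). The uncalled Hsd11b1 estimate for vehicle against young livers, -0.01, became 0.0212 after thinning and ranged from -0.058 to 0.0245 with 1 library left out. That of Hsd3b5 for ouabain against young livers ranged from -0.82 to 0.29, the latter without young replicate 5. The cause was not tested.

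The number of all genes called also varied, and for ouabain against vehicle livers it varied more widely than the count of these 9. For ouabain against vehicle livers 262 genes were called, and 85 to 949 in the other settings and 69 to 642 with 1 library left out. For ouabain against young livers 160 were called, and 71 to 518 and 51 to 612. For vehicle against young livers 2733 were called, and 1783 to 3149 and 2085 to 3061.

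A check of replicate numbers showed no clear pairing of the libraries, and it cannot exclude pairing. Deviations of same-numbered libraries correlated above 0.1 in 2 of 6 pairs of ouabain and vehicle, 1 of 6 of vehicle and young and 0 of 6 of ouabain and young libraries, and 2, 1 and 0 numbers were best matched by their own. With a replicate block, the 9 genes gave the same counts of calls, 3 higher, 7 lower and 1 lower, and over all genes 241, 2522 and 71 were called. Depth limits Hsd3b5 most, with 6 counts over the vehicle libraries.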
